A study of Homo sapiens with 8 samples.

Results

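Autophagy delivers cytoplasmic cargo to the lysosome in a membrane sac that is built for the purpose. The 38 genes described here encode the machinery that starts, builds and loads this sac, with 2 transcription factors that act on it, and they were read by gene symbol from a table of 13307 genes measured in Panc-1 cells, all 38 being present. The set was chosen by the measured values of ULK1, the kinase that starts autophagy: its rise with TGFβ was smaller after depletion of PHF13, and the question was whether the rest of the pathway followed. ULK1 is therefore given as values with no test, and the tests concern the 37 other genes.

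Panc-1 is a cell line from a human carcinoma of the pancreatic duct, and PHF13 is a PHD finger protein that binds methylated histone H3. The cells were transfected with a non-targeting siRNA (siControl) or with siRNAs against PHF13 (siPHF13), and either transfection was followed by growth without TGFβ or by 48 h in 10 ng/ml TGFβ, a cytokine used here to induce epithelial-mesenchymal transition (siControl + TGFβ and siPHF13 + TGFβ). Polyadenylated RNA was sequenced, and each of the 4 groups has 2 libraries. All groups carry an siRNA and the transfection reagent, and no untransfected cells were analysed here. The methods list several siRNA strands against PHF13 and do not say which were combined.

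Once nutrients or growth signals are withdrawn, the ULK1 kinase complex activates a class III PI3-kinase, whose lipid product PI3P recruits WIPI proteins to the growing membrane. ATG9A vesicles and the ATG2 lipid channels supply lipid, and a ubiquitin-like conjugation cascade couples the ATG8 family (LC3 and GABARAP proteins) to the membrane. Cargo receptors such as SQSTM1 (p62) bind ubiquitylated cargo with one face and ATG8 proteins with the other, and are themselves degraded with the cargo, so that their mRNA level is not a reading of autophagic flux.

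Values are counts divided by the DESeq2 size factor of the library (normalized counts). Between 39196214 and 46700806 reads on genes stood behind 7 of the libraries. PHF13 itself stood at 1804 and 1662 normalized counts in siControl, 524.2 and 558.3 in siPHF13, 1586 and 1710 in siControl + TGFβ and 512.8 and 529.4 in siPHF13 + TGFβ, and fell by 1.68 without TGFβ and by 1.66 with it on the log2 scale (limma, adjusted p = 1.52e-08 and 1.31e-08). The duct keratins KRT7, KRT8, KRT18 and KRT19 were measured in all 8 libraries, with KRT8 between 70722 and 120045 normalized counts, whereas 8 markers of leukocytes, endothelium, acini and islets have no row in the table used here. Since cultures were lysed whole, fewer cells of a kind and less RNA per cell cannot be told apart.

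A gene was called changed at an adjusted p under 0.05 with an absolute log2 fold change over 0.58 (1.49-fold), in one limma fit of log2(normalized count + 1) over all 8 libraries. Nothing in the labels says that the libraries of a group came from separate cultures, so p-values measure the spread between these libraries, which may be technical. The comparisons share groups: depletion without TGFβ and TGFβ in siControl cells use the same siControl libraries, and TGFβ in siControl cells and depletion with TGFβ use the same siControl + TGFβ libraries. The difference in TGFβ response uses all 4 groups, and thus the libraries of every other comparison.

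The plot of ULK1, WIPI1 and TFEB by library shows the 3 genes with the largest fold rise with TGFβ in siControl cells. ULK1 (GRCh37, 12:132379167-132407695, plus strand) had 4988 and 4792 normalized counts in siControl, 11040 and 9839 in siPHF13, 15357 and 14238 in siControl + TGFβ and 18372 and 15646 in siPHF13 + TGFβ. The groups did not overlap, and the lowest group was siControl. The ULK1 level was 3.02-fold higher with TGFβ in siControl cells (log2 fold change 1.60) and 1.63-fold higher with TGFβ in siPHF13 cells (0.70), a difference of -0.90 that is the value the set was chosen by. The smaller rise set out from a higher level, since ULK1 was already 2.13-fold higher in siPHF13 than in siControl (1.09). With TGFβ the siPHF13 level was 1.15-fold that of siControl (0.20), with both siPHF13 + TGFβ libraries above both siControl + TGFβ libraries. The ratio under TGFβ rested partly on siPHF13 + TGFβ replicate 1, the highest library: on the log2 scale it was 0.08 without that library and 0.31 without replicate 2. The difference in response was larger without replicate 1 (-1.01) and smaller without replicate 2 (-0.78).

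**Figure D1:**
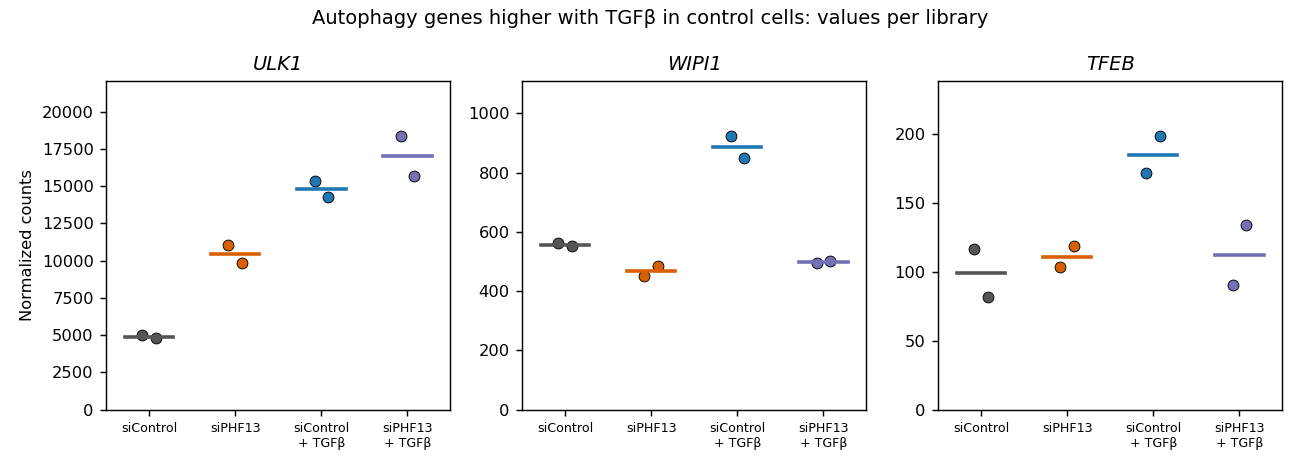
Normalized counts of ULK1, WIPI1 and TFEB (vertical axis of each panel) in the 4 groups, with a point for each of the 2 libraries of a group and a bar at their mean. ULK1 was already near 10440 on average in siPHF13 without TGFβ, whereas WIPI1 and TFEB in siPHF13 + TGFβ stood near their levels without TGFβ.

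Among the 37 other genes TGFβ raised 2 in siControl cells, WIPI1 and TFEB, and lowered 0. That is 5.41% of them, against 4.79% of all 13307 genes called in this comparison (3.27% higher and 1.52% lower), so the share lay near the background. WIPI1, a PI3P-binding protein of the forming autophagosome (17:66417089-66453654, minus strand), had 561.5 and 551.4 normalized counts in siControl and 923.9 and 850.6 in siControl + TGFβ. It had 450.6 and 486.3 in siPHF13 and 494.4 and 500.5 in siPHF13 + TGFβ. Both TGFβ-treated siControl libraries stood above all 6 others, and the siPHF13 libraries lay below siControl with or without TGFβ. WIPI1 rose 1.59-fold with TGFβ in siControl cells (log2 fold change 0.67 ± 0.11 SE, adjusted p = 0.000611), and in siPHF13 cells the change was 0.09 (95% interval -0.14 to 0.32, adjusted p = 0.793). Of the WIPI1 exon bases 24.4% are shared with ARSG on the opposite strand and the strand setting of the counting is not given. ARSG had 55.2 to 110.1 normalized counts over the 8 libraries, with 63.5 and 93.7 in siControl and 88.4 and 110.1 in siControl + TGFβ.

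TFEB, a master regulator of lysosomal and autophagy genes (6:41651716-41703997, minus strand), was the lowest of the 38 per kilobase of exon, at 14.8 normalized counts per kb in siControl. It had 116.7 and 82.0 normalized counts in siControl, 103.4 and 118.4 in siPHF13, 171.4 and 198.5 in siControl + TGFβ and 90.7 and 133.8 in siPHF13 + TGFβ. The 2 siControl + TGFβ libraries again stood above all others, and the 3 remaining groups overlapped. TFEB rose 1.88-fold with TGFβ in siControl cells (0.91 ± 0.25 SE, adjusted p = 0.0224), and in siPHF13 cells the change was -0.01 (95% interval -0.54 to 0.52, adjusted p = 0.996). The call in siControl cells was lost without siControl replicate 2 (0.66, adjusted p = 0.231), without siControl + TGFβ replicate 1 (1.01, adjusted p = 0.0703) and without replicate 2 of that group (0.80, adjusted p = 0.13).

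The 250 bases before the RefSeq start of these 3 genes are printed because the genes share a rise with TGFβ, with the SMAD-binding core CAGAC, searched on either strand, in capitals. The sequences are from the RefSeq promoter table (GRCh38.p14) and each matched GRCh37 once, at 12:132378917-132379166 on the plus strand for ULK1, 17:66453638-66453887 on the minus strand for WIPI1 and 6:41703347-41703596 on the minus strand for TFEB, the last inside the annotated gene.
ULK1: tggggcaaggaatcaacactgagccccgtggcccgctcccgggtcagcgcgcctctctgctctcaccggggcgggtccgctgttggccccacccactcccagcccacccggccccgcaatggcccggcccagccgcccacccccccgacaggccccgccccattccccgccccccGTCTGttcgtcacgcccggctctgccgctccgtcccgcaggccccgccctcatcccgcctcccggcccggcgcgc
WIPI1: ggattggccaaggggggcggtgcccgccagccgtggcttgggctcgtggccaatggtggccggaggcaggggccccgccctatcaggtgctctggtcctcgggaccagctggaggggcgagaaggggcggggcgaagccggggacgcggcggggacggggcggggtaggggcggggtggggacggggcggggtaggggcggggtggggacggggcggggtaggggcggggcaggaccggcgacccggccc
TFEB: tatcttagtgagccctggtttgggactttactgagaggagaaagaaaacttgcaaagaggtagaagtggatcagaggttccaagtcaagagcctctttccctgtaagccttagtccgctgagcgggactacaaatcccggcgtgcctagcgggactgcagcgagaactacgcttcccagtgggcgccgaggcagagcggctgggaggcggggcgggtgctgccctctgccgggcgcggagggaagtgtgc
ULK1 held the core once, 75 bases before the start and as its reverse complement GTCTG, and the other two held none. The core is short: 38.0% of the 35116 promoters in the table hold it, and 14 of the 34 autophagy genes found there (41.2%). The CLEAR E-box CACGTG, the element that TFEB and TFE3 bind, was in 2 of these 34 (5.88%), ATG14 and ATG3, against 6.34% of all promoters. The AP-1 site TGANTCA was also in 2 of the 34 (6.57% of all), and the GC box GGGCGG in 22 (64.7% against 42.6%). A match of letters is a description and says nothing of binding.

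At an adjusted p under 0.05 alone, 5 of the 37 (13.5%) were higher with TGFβ in siControl cells and 0 lower, against 15.9% of all genes by the same rule (9.21% higher and 6.67% lower). Beside WIPI1 and TFEB these were GABARAPL1, ATG9A and MAP1LC3B. GABARAPL1, an ATG8 protein, had 806.2 and 887.5 normalized counts in siControl, 998.6 and 928.2 in siPHF13, 1130 and 1210 in siControl + TGFβ and 1121 and 1017 in siPHF13 + TGFβ. Its log2 fold change with TGFβ was 0.47 in siControl cells (adjusted p = 0.00422, under the fold threshold) and 0.15 in siPHF13 cells (adjusted p = 0.56). ATG9A, the transmembrane lipid scramblase of autophagy vesicles, was at 0.37 (adjusted p = 0.00118) and MAP1LC3B, the LC3 protein most used as an autophagosome marker, at 0.29 (adjusted p = 0.011), both named after their values were seen. Of the exon bases of ATG9A 38.8% are shared with a readthrough gene on the same strand. The lowest value belonged to ATG4A, a protease that trims ATG8 proteins, with 1199 and 1215 normalized counts in siControl, 1008 and 989.5 in siControl + TGFβ, 1413 and 1527 in siPHF13 and 1165 and 1325 in siPHF13 + TGFβ. Its change with TGFβ was -0.27 in siControl (adjusted p = 0.0534) and -0.24 in siPHF13 cells (adjusted p = 0.213). The median log2 fold change of the 37 was 0.05, against -0.01 over all genes.

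In siPHF13 cells 0 of the 37 were called with TGFβ by limma, against 1.35% of all genes (1.13% higher and 0.218% lower), and 4 had an unadjusted p under 0.05 (10.8%, against 13.9% of all genes). edgeR and DESeq2 on recovered reads also called 0. The 4 were ATG9A (0.15), RB1CC1 (-0.20), ATG4A (-0.24) and SQSTM1 (-0.21). SQSTM1 was at -0.05 without siPHF13 replicate 1 and -0.37 without siPHF13 replicate 2, and ATG4A at -0.15 without siPHF13 + TGFβ replicate 1. ULK1, at 0.70, stood far above the highest of the 37.

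The response in siPHF13 cells minus that in siControl cells is the comparison that bears on whether the pathway followed ULK1. By limma 0 of the 37 passed, against 0.308% of all genes (0.0601% higher and 0.248% lower), and by edgeR and DESeq2 0 as well. Since so few of all genes passed, with 2 libraries a group, a count of 0 cannot tell whether the 37 followed. An unadjusted p under 0.05 was found for 5 (13.5%, against 9.46% of all genes), and all 5 were negative: TFEB (-0.91 ± 0.35 SE, adjusted p = 0.385), WIPI1 (-0.58 ± 0.15, adjusted p = 0.161), RB1CC1 (-0.35, adjusted p = 0.152), GABARAPL1 (-0.32, adjusted p = 0.469) and ATG9A (-0.22, adjusted p = 0.441). Over the 37, 27 differences lay below zero (73.0%), against 51.7% of all genes, and the median was -0.09 against -0.01. All 5 ATG8 genes and all 6 of the lipid supply and PI3P-binding genes lay below zero, as did 4 of the 10 conjugation genes. Among the ATG8 genes GABARAP had 83.8 to 120.9 normalized counts and a difference of -0.185 ± 0.322 SE. Of its exon bases 35.4% are shared with another gene on the same strand. All genes were measured in the same 8 libraries, so their signs are not separate observations. A low siControl value of a gene would by itself lower its difference. TFEB thus lay at the value of ULK1 (-0.90) and WIPI1 was the next, whereas the others ranged from -0.35 (RB1CC1) to 0.16 (ATG3). For WIPI1 the adjusted p ranged from 0.0848 to 0.608 over the alternatives and for TFEB from 0.229 to 0.899, with no call in any.

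**Figure D2:**
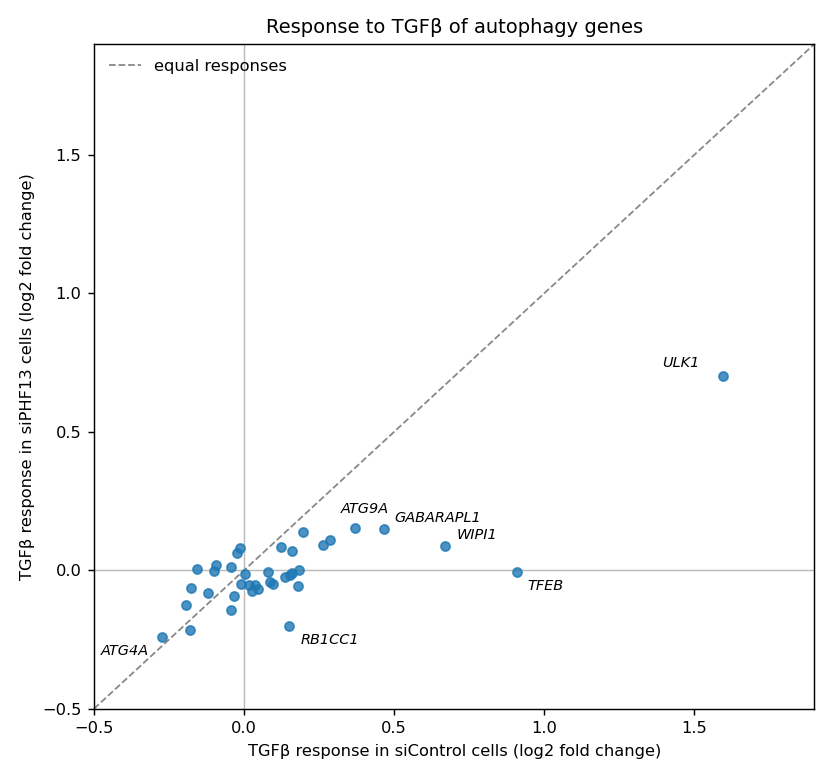
Log2 fold change with TGFβ in siPHF13 cells (vertical axis) against that in siControl cells (horizontal axis) for the 38 genes, with a dashed line where both are equal. ULK1, WIPI1 and TFEB lie furthest below the line, at -0.90, -0.58 and -0.91 from it.

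Depletion of PHF13 without TGFβ changed 5 of the 37, 2 higher (ATG2A and WIPI2) and 3 lower (SQSTM1, OPTN and TAX1BP1). That is 13.5%, under the 18.4% called among all genes (7.95% higher and 10.4% lower). With TGFβ 9 were changed (24.3%, against 20.5% of all genes, 8.81% higher and 11.7% lower), the same 5 together with RB1CC1, WIPI1, TFEB and TFE3, all 4 lower. The median of the 37 was 0.12 without TGFβ and 0.02 with it, against medians of all genes within 0.003 of zero.

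The cargo receptors held the largest falls. SQSTM1, the receptor p62 and also a signalling scaffold (5:179233398-179265078, plus strand), had 63458 and 63762 normalized counts in siControl and 35498 and 28446 in siPHF13. With TGFβ it had 55192 and 57235 in siControl and 28092 and 26729 in siPHF13. Every siPHF13 library was below every siControl library, with or without TGFβ. SQSTM1 fell by 1.00 ± 0.08 SE on the log2 scale without TGFβ (adjusted p = 5.84e-07) and by 1.04 with it (adjusted p = 3.7e-07), and its change with TGFβ was -0.18 in siControl cells (adjusted p = 0.181). It was the highest of the 38 per kilobase of exon, at 8442 normalized counts per kb in siControl, with CALCOCO2 next at 1199 per kb. Of its exon bases 22.4% are shared with MGAT4B and MRNIP on the opposite strand. MGAT4B was at 0.12 with depletion (adjusted p = 0.12), and C5orf45, the older symbol of MRNIP, fell from 2861 and 2771 normalized counts in siControl to 1829 and 1647 in siPHF13 (-0.70, adjusted p = 1.22e-05).

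OPTN, optineurin, a receptor for damaged mitochondria and bacteria (10:13141449-13180308, plus strand), had 4962 and 5049 normalized counts in siControl, 2759 and 2724 in siPHF13, 5738 and 5450 in siControl + TGFβ and 2618 and 2833 in siPHF13 + TGFβ. It fell by 0.87 without TGFβ (adjusted p = 2.37e-07) and by 1.04 with it (adjusted p = 4.15e-08). TAX1BP1, a receptor for ubiquitylated aggregates (7:27778950-27884183, plus strand), had 9286 and 9405 in siControl, 4962 and 4776 in siPHF13, 10073 and 9748 in siControl + TGFβ and 4718 and 4744 in siPHF13 + TGFβ. The depleted libraries of both genes stood in a narrow band far under all siControl libraries. TAX1BP1 fell by 0.94 ± 0.06 SE without TGFβ (adjusted p = 3.55e-08) and by 1.07 with it (adjusted p = 1.01e-08).

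The other 2 receptors had smaller values. CALCOCO2 (NDP52), which targets bacteria and mitochondria, had 9942 and 9971 normalized counts in siControl, 7460 and 7745 in siPHF13, 9137 and 8489 in siControl + TGFβ and 7321 and 7232 in siPHF13 + TGFβ. Its log2 fold changes of -0.39 and -0.28 passed the adjusted p (0.000123 and 0.00164) and not the fold threshold. NBR1, a partner of p62, had 3624 and 4011 in siControl against 3323 and 3653 in siPHF13, and 3866 and 3704 against 3290 and 3436 with TGFβ. Its groups overlapped without TGFβ, and its changes of -0.13 and -0.17 did not pass (adjusted p = 0.166 and 0.0696). All 5 receptors thus had values below zero in both depletion comparisons, with medians of -0.87 and -1.04. Of all genes 50.1% lay below zero without TGFβ and 49.7% with it. In each comparison 3 of the 5 were called lower, where 10.4% and 11.7% of all genes were lower.

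**Figure D3:**
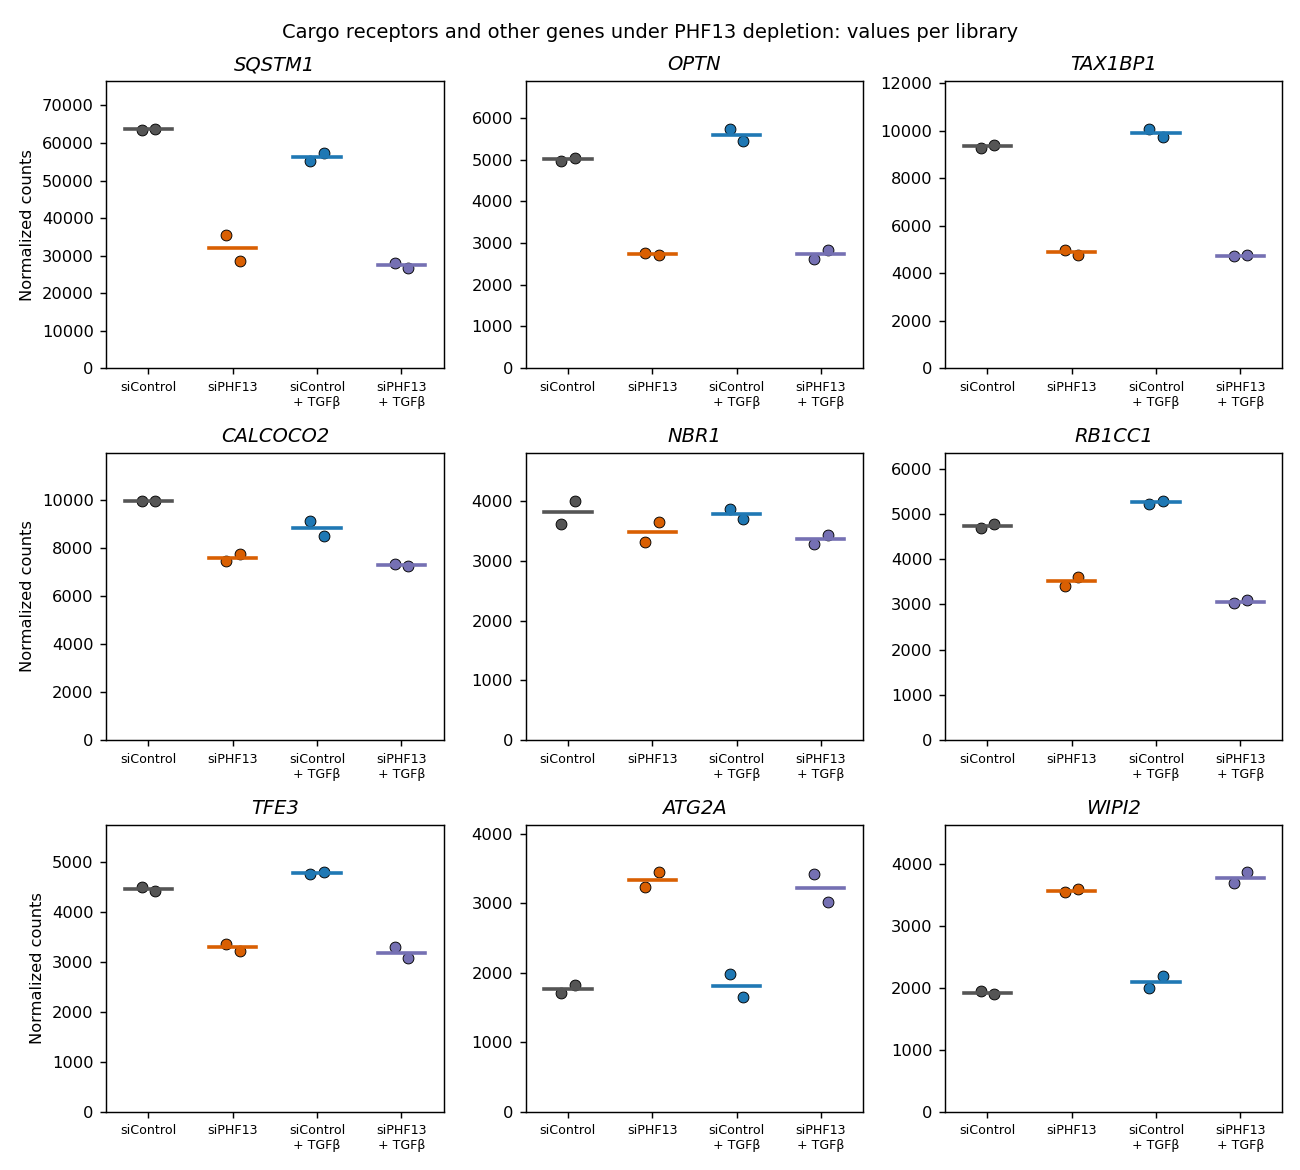
Normalized counts (vertical axis of each panel) of the 5 cargo receptors and of RB1CC1, TFE3, ATG2A and WIPI2 in the 4 groups, with a point per library and a bar at the mean. SQSTM1, OPTN and TAX1BP1 were about 0.5-fold of siControl in siPHF13, and ATG2A and WIPI2 near 1.9-fold.

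ATG2A and WIPI2 went the other way. ATG2A, a lipid transfer protein between the endoplasmic reticulum and the growing membrane (11:64662018-64684681, minus strand), had 1712 and 1818 normalized counts in siControl, 3234 and 3444 in siPHF13, 1978 and 1655 in siControl + TGFβ and 3429 and 3019 in siPHF13 + TGFβ. WIPI2, the PI3P-binding protein that recruits ATG16L1 (7:5229827-5273471, plus strand), had 1950 and 1897, 3537 and 3592, 2001 and 2189, and 3694 and 3860 in the same order. All depleted libraries of both genes stood above all siControl libraries. ATG2A rose 1.89-fold without TGFβ (0.92, adjusted p = 2.97e-06) and 1.78-fold with it (0.83, adjusted p = 6.73e-06). WIPI2 rose 1.85-fold (0.89, adjusted p = 3.39e-07) and 1.80-fold (0.85, adjusted p = 4.4e-07). Their paralogs had other values: ATG2B was at -0.01 without TGFβ (adjusted p = 0.948), and WIPI1 at -0.25 (adjusted p = 0.0681) and, with TGFβ, at -0.83.

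RB1CC1 (FIP200), the scaffold of the ULK1 complex (8:53535018-53658403, minus strand), had 4688 and 4776 normalized counts in siControl, 3410 and 3607 in siPHF13, 5219 and 5292 in siControl + TGFβ and 3019 and 3085 in siPHF13 + TGFβ. The siPHF13 libraries lay below all siControl libraries. Its log2 fold change was -0.43 without TGFβ (adjusted p = 7.39e-05, under the fold threshold), and with TGFβ it fell by 0.78 ± 0.06 SE (adjusted p = 3.03e-07). The fall of RB1CC1 thus stood beside the higher ULK1 level in the same libraries. ATG13, another subunit of the complex, was at 0.45 without TGFβ (adjusted p = 0.000737) and 0.22 with it (adjusted p = 0.0512), and ULK2, the ULK1 paralog, at -0.18 (adjusted p = 0.106) and -0.07 (adjusted p = 0.548).

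Under TGFβ the transcription factors and WIPI1 were lower after depletion. WIPI1 fell by 0.83 (adjusted p = 2.13e-05) and TFEB by 0.74 (adjusted p = 0.0228). The TFEB call was lost without siControl + TGFβ replicate 2 (-0.63, adjusted p = 0.128) and without siPHF13 + TGFβ replicate 1 (-0.46, adjusted p = 0.185). TFE3, which binds the same element as TFEB (X:48886237-48900936, minus strand), had 4502 and 4407 normalized counts in siControl, 3364 and 3219 in siPHF13, 4753 and 4785 in siControl + TGFβ and 3303 and 3065 in siPHF13 + TGFβ. All its depleted libraries lay below all others. TFE3 fell by 0.58 with TGFβ (adjusted p = 6.71e-06), on the edge of the fold threshold (-0.584, and -0.579, not called, with TMM factors), and was at -0.44 without it (adjusted p = 9.71e-05).

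**Figure D4:**
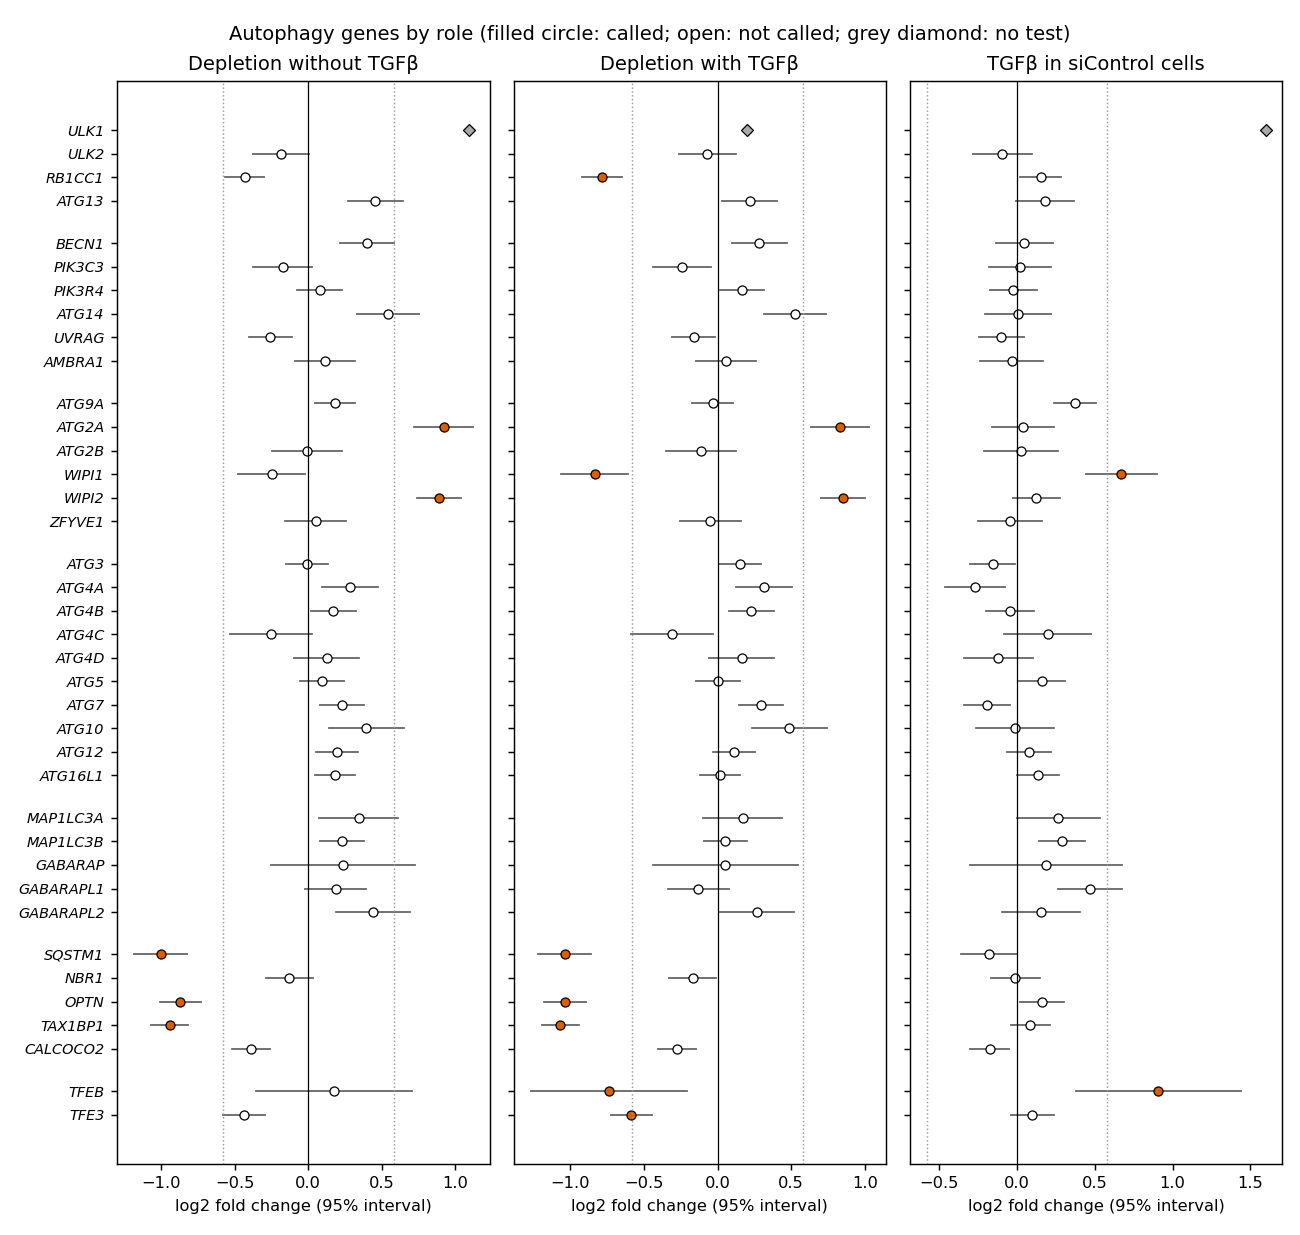
Log2 fold change (horizontal axis) with its 95% interval for each of the 38 genes, by role, in 3 panels: depletion without TGFβ, depletion with TGFβ, and TGFβ in siControl cells. Filled points were called, open points were not, the grey diamond is ULK1 with no test, and dotted lines mark ±0.58. ULK1 has no interval. The filled points left of zero are 3 cargo receptors without TGFβ and the same 3 with RB1CC1, WIPI1, TFEB and TFE3 under TGFβ, and no conjugation gene is filled in any panel.

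In the remaining stages no gene was called. None of the 10 conjugation and LC3-processing genes was called in any of the 5 comparisons. Depletion called 18.4% of all genes without TGFβ and 20.5% with it, and TGFβ in siControl cells 4.79%. At the adjusted p alone 5 of the 10 (50%) were higher with depletion without TGFβ, against 23.1% of all genes. With TGFβ 4 (40%) were higher, against 24.5%. Of these, ATG10, the E2 enzyme of ATG12, had the largest values (0.40 and 0.49, adjusted p = 0.0133 and 0.00339). The 6 class III PI3-kinase genes had no call either. ATG14, the subunit that directs the kinase to autophagy, came nearest to the threshold, at 0.54 and 0.52 (adjusted p = 0.000496 and 0.000574). BECN1 (beclin 1) stood at 0.40 and 0.28 (adjusted p = 0.0017 and 0.0133). Genes on the opposite strand share 20.8% of the exon bases of ATG14 and 17.1% of those of BECN1. The 5 ATG8 genes lay above zero with depletion without TGFβ and with TGFβ in siControl cells, with 0 called. Of all genes 50.1% and 51.1% lay below zero in these comparisons. GABARAPL2 had the largest value of the 5 with depletion without TGFβ (0.44, adjusted p = 0.00651). Without the fold threshold, 21 of the 37 (56.8%) passed with depletion without TGFβ, 14 higher and 7 lower, against 47.4% of all genes (23.1% higher and 24.3% lower). With TGFβ 17 (45.9%) passed, 8 higher and 9 lower, against 50.4% of all genes (24.5% higher and 25.9% lower).

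Around the 38, 103 genes from 6 lists of the pathway's neighbours were matched of 107 listed. Upstream of ULK1, in nutrient sensing, 3 of 31 were called with depletion without TGFβ (9.68%, under the 18.4% of all genes). LAMTOR1, an anchor of mTORC1 on the lysosome, had 3243 and 3096 normalized counts in siControl and 1018 and 934.2 in siPHF13 (-1.70, adjusted p = 2.57e-09), and PRKAA2, a catalytic subunit of AMPK, which phosphorylates ULK1, had 1938 and 1998 against 3983 and 4118 (1.04, adjusted p = 1.13e-07). PRKAG2, a regulatory subunit of AMPK, was the third (-0.59). With TGFβ 5 were called (16.1%, against 20.5% of all genes), led by LAMTOR1 (-1.73), SESN3 (-1.40, at 7.6 to 47.8 normalized counts over the libraries) and PRKAA2 (1.26).

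Of 26 lysosomal genes, 6 were higher with depletion and 0 lower (23.1% higher, against 7.95% of all genes), among them GAA, the acid alpha-glucosidase (0.92), and MCOLN1, a calcium channel of the lysosome (0.87). With TGFβ 4 of 26 were higher and 0 lower (15.4% higher, against 8.81% of all genes), with GAA at 0.92, and with TGFβ in siControl cells 0 were called. At the adjusted p alone, depletion without TGFβ had 15 of the 26 higher and 3 lower, against 23.1% and 24.3% of all genes. With TGFβ 14 were higher and 5 lower, against 24.5% and 25.9% of all genes. CTSD had the lowest value in both (-0.41 and -0.52). In the other lists, WDR45 (WIPI4), a further PI3P-binding protein, was the single call of 12 autophagosome genes without and with TGFβ (0.66 and 0.90). That is 8.33% in each, under the 18.4% and 20.5% of all genes. Of 17 other receptors 0 were called by limma without TGFβ. At the adjusted p alone 9 passed (52.9%, against 47.4% of all genes), 5 higher and 4 lower. With TGFβ 3 of the 17 were called (17.6%, against 20.5% of all genes), 1 higher and 2 lower. The lower ones included NCOA4, the ferritin receptor (-0.73). Of the 17, 7 lay above zero and 10 below with TGFβ. Among 13 fusion genes 2 were called with depletion without TGFβ (15.4%, against 18.4% of all genes). PLEKHM1, an adaptor of lysosome fusion, was higher (0.90) and VAMP8, a fusion SNARE, lower (-0.59). With TGFβ 0 of 13 were called by limma, against 20.5% of all genes. PLEKHM1 (0.57) and VAMP8 (-0.52) were among 7 of the 13 past the adjusted p alone (53.8%, against 50.4% of all genes). Of 4 other transcription factors 1 was lower without TGFβ, FOXO1 (-0.94), where 10.4% of all genes were lower. With TGFβ 3 were lower, FOXO1 (-1.28), ZKSCAN3 (-0.69) and FOXO3 (-0.68), where 11.7% of all genes were lower. FOXO1 is a low-count gene, with 226.7 and 255 normalized counts in siControl and 90.5 and 172.6 in siPHF13. With TGFβ it had 311.6 and 294.2 in siControl and 149 and 103 in siPHF13. With TGFβ in siControl cells 3 of the 103 were called (2.91%, under the 4.79% of all genes). These were PRKAB2, a subunit of AMPK (0.68), CCPG1, a receptor for the endoplasmic reticulum (0.61), and DEPTOR, an inhibitor of mTOR (-1.23). DEPTOR had 51.4 to 153.7 normalized counts over the libraries. By limma 0 of the 103 were called for the difference in TGFβ response, where 10 had an unadjusted p under 0.05 (9.71%, near the 9.46% of all genes) and 79 lay below zero (76.7%, against 51.7% of all genes).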

How the data were processed

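mRNA of Panc-1 cells was measured in 4 groups of 2 libraries, grouped by the sample labels and the column headings. The columns taken as siControl are headed NT. They were assigned as the remaining group, and because they average to the siControl mean given by the authors. The authors trimmed paired-end 150 bp reads with Trim Galore 0.4.1, mapped them with STAR 2.7.0 to hg19, counted exon reads with htseq-count (HTSeq 0.12.4) and divided the counts by DESeq2 size factors. The deposited values are thus a signal, gene counts over a size factor. The annotation release and strand setting are not given in the sources used here. Further tables of the authors hold their own means, fold changes and p-values. Beyond that match of the siControl mean they were not used.

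Values were log2-transformed with a pseudocount of 1 and fitted with limma 3.58.1 (R 4.3.3, trended prior variance, all 8 libraries, no replicate block). P-values of 5 comparisons were adjusted over 13307 genes by the Benjamini-Hochberg method; a minimum of 10 in 2 libraries removed 0 genes. Fold changes are of value + 1 and understate low genes. In all libraries 100% of values were whole multiples of a step (tolerance 0.01), the worth of 1 read. In siPHF13 replicate 1 that step was 0.995, too near 1 to tell reads from rounding, so edgeR 4.0.16 and DESeq2 1.42.0 were run on the whole reads of the other 7 libraries, where the lone siPHF13 library is assumed to vary like the rest. The procedure was tested on simulated data.

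Genes described by library are ULK1, every gene called in a comparison and the 3 largest changes of each; other genes given by value were picked after their values were seen. From each neighbouring list come at most the 3 largest called changes. Of these, 1 gene is not reported here. The genes, lists and rules were chosen with earlier results of these data known. Positions and exon lengths are from GENCODE v44lift37 (GRCh37). Of 38 genes 34 had a promoter in the RefSeq table, motifs being searched on both strands. Alternatives were a pseudocount of 5, no minimum, a minimum mean of 100, TMM factors, fits restricted to the groups compared, a replicate block, count models, no fold threshold and each library left out.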

Additional observations from a re-analysis of the deposited data

Results flagged for a closer look

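For 3 genes the groups compared did not overlap, in one direction in one setting and in the opposite direction in the other. No difference passed the test itself (limma, adjusted over all genes). The TGFβ response of RB1CC1 was 0.15 in siControl and -0.20 in siPHF13 cells, a difference of -0.35 (adjusted p = 0.152; 0.0594 to 0.606 over the alternatives). The depletion response of GABARAPL1 was 0.19 without TGFβ and -0.13 with it, a difference of -0.32 (adjusted p = 0.469). The nearest GABARAPL1 libraries with TGFβ were close, at 1130 normalized counts in siControl and 1121 in siPHF13. The TGFβ response of TAX1BP1 was 0.09 (0.085) in siControl and -0.04 in siPHF13 cells, a difference of -0.13 (adjusted p = 0.703). Its nearest siPHF13 libraries were close, at 4776 normalized counts without TGFβ and 4744 with it.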

How the results depend on the processing

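The number of the 37 genes called was 5 with depletion without TGFβ, 2 with TGFβ in siControl cells and 9 with depletion under TGFβ, and it lay within 1.5 times of these in the other alternatives that were run except those named here. With no threshold on the fold change it was 21, 5 and 17. With each library left out in turn it ranged from 5 to 6, from 1 to 2 and from 7 to 10, and stayed at 0 to 0 for TGFβ in siPHF13 cells and for the difference in response. The count of 1 with TGFβ arose without siControl replicate 2 and without either siControl + TGFβ replicate, where WIPI1 was the gene left. No direction was reversed. TFE3 under TGFβ was not called with TMM factors (-0.579), with edgeR (-0.578), without siControl + TGFβ replicate 2 (-0.579) or without siPHF13 + TGFβ replicate 2 (-0.53), since it sits at the threshold. The change of PHF13 ranged from -1.74 to -1.62 and from -1.71 to -1.60 with libraries left out. With the replicate number as a block the counts were 5, 2, 9, 0 and 0. The deviations of same-numbered libraries correlated between -0.252 (the 2 siPHF13 groups) and 0.271 (the 2 TGFβ groups) over 6 pairs of groups. They thus had no common sign, and whether the numbers pair some of the samples was not tested. A fit of only the libraries compared does not apply to the difference in response. With 2 libraries a group, low-count genes such as TFEB have wide intervals.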
